A study of Sus scrofa with 6 samples.

Results

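Glycolysis and hypoxia response genes were followed in cultured granulosa cells of the pig (Sus scrofa). In the follicle these cells surround and nourish the oocyte. Members were 30 named genes for glucose uptake, the steps of glycolysis, its regulators and targets of the hypoxia-inducible factors (HIF). Of these, 28 had a row among the 35670 gene identifiers of the deposited count table, and all 28 had enough reads to be tested. SLC2A3 and BNIP3 matched no identifier and were not analysed here. The heat group (n = 3 libraries) spent 6 h at 42 °C, and the control group (n = 3 libraries) spent the same 6 h at 37 °C. Both groups came from follicles of 3 to 6 mm, were grown in medium with 10% fetal bovine serum to about 70% confluency, and were kept under 5% CO2 in humidified air throughout. The labels call the libraries of a group biological replicates without naming animals or cultures. The spread behind each p-value is thus the spread among these 6 libraries, and it may be technical.

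Glycolysis breaks glucose down to pyruvate, and lactate dehydrogenase turns pyruvate into lactate. Granulosa cells are known to supply pyruvate and lactate to the oocyte. When oxygen is low, the alpha subunits of HIF escape hydroxylation and degradation and raise the transcription of glucose transporters, most glycolytic enzymes, and genes of angiogenesis, mitophagy, pH control and HIF feedback. Stress other than low oxygen can also alter these genes.

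Abundances are given as CPM, counts per 1e6 reads after scaling by edgeR's TMM factors, a level that compares 1 gene between libraries but not 1 gene with another. Library totals lay between 20411952 and 29606378 counts in heat and between 18711440 and 22599356 counts in control. Libraries within a group were not equally alike. The Pearson correlation across genes of log2 CPM was 0.994 between heat 1 and heat 2 and 0.993 between control 2 and control 3, while heat 3 reached 0.923 and 0.917 with its own group and control 1 reached 0.911 and 0.915. Heat 3 and control 1 correlated at 0.932 with each other, above the value of either with any library of its own group. These values are across genes, which are no replicates, and describe likeness only. The heat response was read here from HSPH1 only, which lay higher in every heat library than in any control. HSPH1, an exchange factor for HSP70, stood at 1433, 1434 and 1678 CPM in heat, against 189, 100.1 and 87.7 CPM in control (edgeR adjusted p = 0.0266). Markers of the labelled cell type were mixed. Of 13 granulosa markers 8 had enough reads to be tested, AMH, INHA, AMHR2 and HSD17B1 were below 1 CPM in every library, and FSHR was at most 0.0930 CPM in heat and 2.14 CPM in control. Other markers on the list were present, among them INHBA at 154 to 183 CPM in heat and 198 to 387 CPM in control, CYP11A1 at 57.6 to 69.6 CPM in heat and 29.0 to 44.0 CPM in control, and KITLG at 128 to 274 CPM in heat and 62.6 to 144 CPM in control. The summed granulosa markers ranged from 511 to 626 CPM in heat and from 337 to 657 CPM in control. Summed stroma markers (6 genes) stood at 87900, 79360 and 28070 CPM in heat 1, 2 and 3, against 59100, 7419 and 6696 CPM in control 1, 2 and 3. Summed smooth muscle markers (5 genes) ranged from 6727 to 14700 CPM in heat and from 9984 to 10250 CPM in control. Summed leukocyte markers (6 genes) stood at 4.34, 2.65 and 1.31 CPM in heat. In control 1, 2 and 3 these sums were 3.34, 31.2 and 63.6 CPM. LYZ, a leukocyte marker, was called lower (edgeR adjusted p = 0.0447), although its control 1 lay among the heat libraries. It held 26.3 and 54.1 CPM of the sums in control 2 and 3. The other tested leukocyte markers, CD68 and CD14, overlapped between the groups and were not called. Their log2 fold changes were -0.77 and 0.077 (edgeR adjusted p = 0.435 and 0.930). Ovarian surface markers (4 of 6 with a row) summed to 71.0, 108.7 and 20.6 CPM in heat. In control they summed to 22.4, 3.93 and 6.45 CPM, so heat 3 lay below control 1. Of these markers KRT8 and UPK3B were called higher, while KRT7 overlapped between the groups and was not called. UPK3B rested on 25, 29 and 35 reads in heat and 3, 5 and 4 reads in control. It thus passed the read filter through the heat group only, and its call is no independent support. The part of the cell types marked by these lists in the results below was not tested. The 3 theca markers summed to at most 0.306 CPM in heat and 0.134 CPM in control, with INSL3 at 0 in all libraries. Endothelial CDH5 was at 0, while PECAM1 ranged from 5.23 to 10.8 CPM in heat and from 7.74 to 9.47 CPM in control. Of the 4 oocyte markers ZP3 was at 0 and BMP15 had too few reads to be tested. DDX4 overlapped between the groups and was not called (log2 fold change -0.21, edgeR adjusted p = 0.788). GDF9 alone was called higher (edgeR adjusted p = 0.0477). It stood at 18.5, 19.2 and 9.41 CPM in heat against 6.48, 6.07 and 5.16 CPM in control. In bulk RNA, fewer cells of a type and less RNA per cell cannot be told apart.

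With heat, no member passed the test over all genes, and the members did not move as a block. Transcripts of the hexose phosphate isomerase GPI and of the phosphofructokinases PFKL and PFKP lay higher in every heat library, and so did the HIF targets CA9 and NDRG1. Transcripts of lactate dehydrogenase LDHA and of the HIF target ANKRD37 lay lower in every heat library. The enzymes of the lower, ATP-yielding segment all overlapped between the groups. The HIF targets split, some with their highest values in 2 heat libraries and some in 2 control libraries.

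Of 28 members 0 were called higher and 0 lower by edgeR's quasi-likelihood test (Benjamini-Hochberg adjusted p below 0.05). Over all 14242 tested genes 11.0% were called, 6.71% higher and 4.32% lower. At an unadjusted p below 0.05, which 33.9% of all tested genes reached, the members numbered 3 higher and 4 lower, which is 10.7% and 14.3% of 28, beside 19.5% and 14.4% of all tested genes. All heat libraries lay above all controls for 5 members (17.9%) and below them for 2 (7.14%), beside 20.9% and 16.8% of all tested genes. None of these shares of members lay above that of all genes. The median log2 fold change, heat minus control, was 0.13 over the members and 0.05 over all tested genes. Its median size without sign was 0.45 over the members and 0.76 over all tested genes. DESeq2 called 1 member higher (PFKFB3) and 3 lower (LDHA, EGLN3 and ANKRD37). Its own filter left 17901 genes, of which it called 12.0% higher and 9.32% lower. Limma-voom called 0 members higher and 1 lower (LDHA), while it called 7.41% of all genes higher and 5.14% lower.

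**Figure D1:**
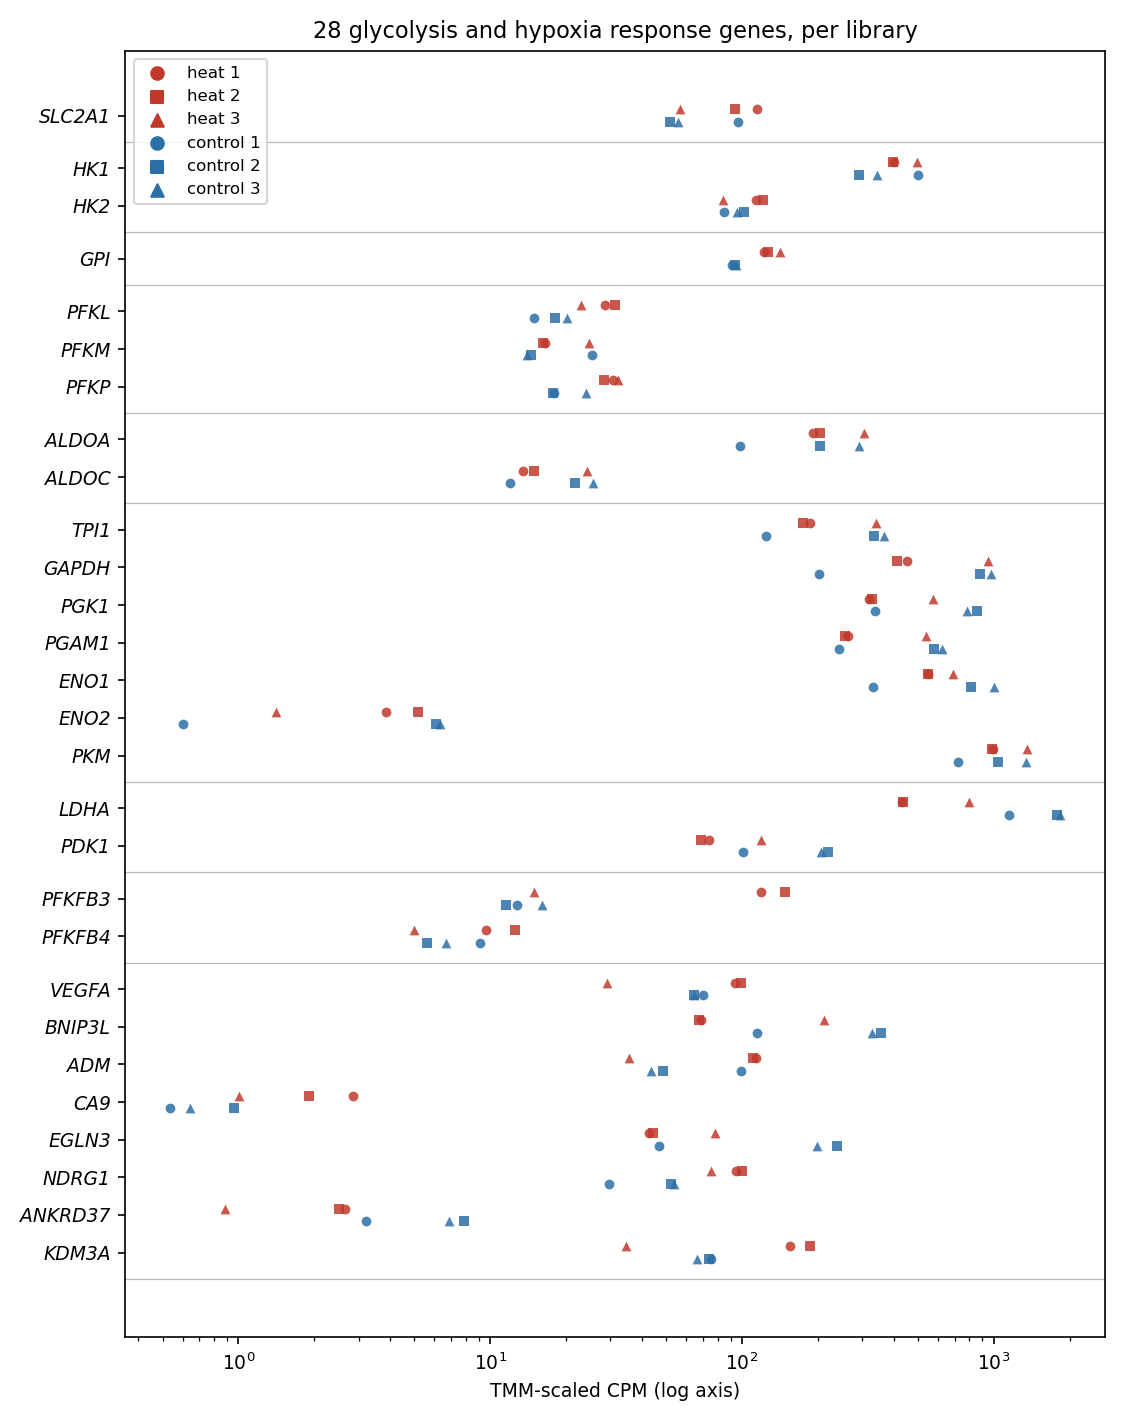
TMM-scaled CPM (log axis) of the 28 members in each library, ordered by role, with heat in red above control in blue and 1 symbol per replicate number. For most members heat 1 and heat 2 lie together and control 2 and control 3 lie together, while heat 3 and control 1 stand away from their own groups.

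**Figure D2:**
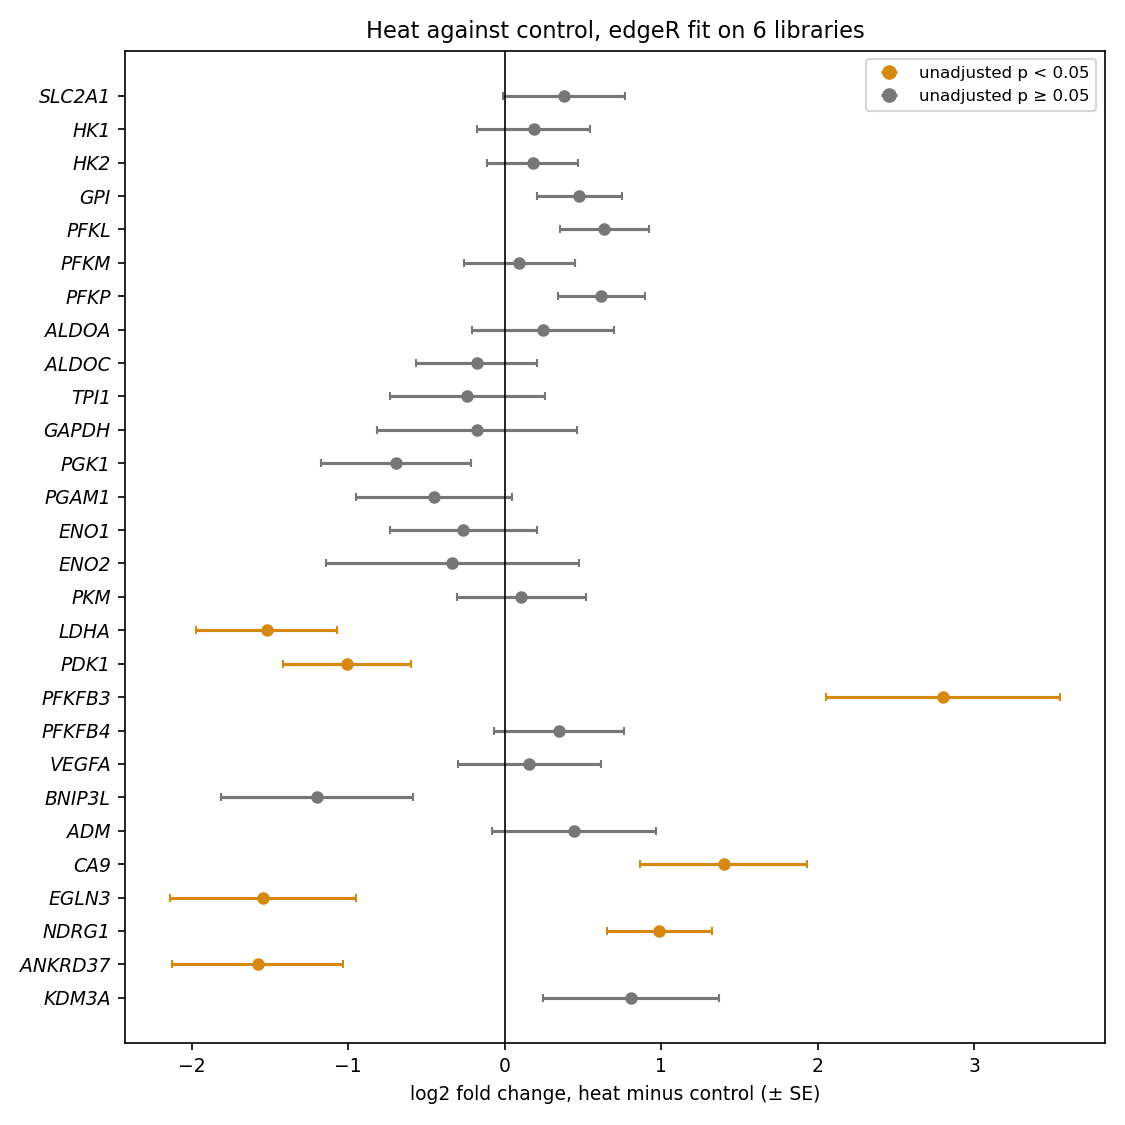
Log2 fold change of each member, heat minus control, with its standard error, from the edgeR fit on 6 libraries. Orange marks the 7 members with an unadjusted p below 0.05, of which PFKFB3 is the highest at 2.80 and ANKRD37 the lowest at -1.58.

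Glucose enters the cell through facilitative transporters and is trapped by hexokinases. SLC2A1, the widespread transporter GLUT1, stood at 115, 93.7 and 56.8 CPM in heat 1, 2 and 3, against 96.5, 51.7 and 55.8 CPM in control 1, 2 and 3. Heat 3 lay with control 2 and 3, and control 1 lay with heat 1 and 2, so the groups overlapped (log2 fold change 0.38 ± 0.39 SE). HK1, the constitutive hexokinase, stood at 399.8, 399 and 494 CPM in heat, against 502, 292 and 344 CPM in control. HK2, the inducible hexokinase and a HIF target, stood at 114, 121 and 83.8 CPM in heat, against 84.4, 102 and 95.7 CPM in control. Both hexokinases overlapped between groups, with edgeR adjusted p-values of 0.737 and 0.687. The ratio of HK2 to HK1 was 0.285, 0.304 and 0.169 in heat and 0.168, 0.348 and 0.278 in control. It was low in heat 3 and control 1 and did not follow the groups.

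The next steps are those of GPI and the phosphofructokinases, of which 0 were called, beside 11.0% of all tested genes. GPI, which interconverts the hexose phosphates, stood at 122, 126 and 141 CPM in heat, against 91.4, 93.6 and 94.6 CPM in control. The 3 controls were close together and every heat library lay above them, by a log2 fold change of 0.48 ± 0.27 (SE), which did not pass (edgeR adjusted p = 0.243). Phosphofructokinase makes the committed step of glycolysis and has a liver-type, a muscle-type and a platelet-type subunit. PFKL, the liver type, stood at 28.5, 31.3 and 23.01 CPM in heat, against 15.0, 18.1 and 20.2 CPM in control. PFKP, the platelet type, stood at 30.8, 28.4 and 32.2 CPM in heat, against 17.8, 17.8 and 23.9 CPM in control. For both, every heat library lay above every control. Their log2 fold changes were 0.64 ± 0.28 and 0.62 ± 0.28 (SE), with edgeR adjusted p-values of 0.156 and 0.157. PFKM, the muscle type, stood at 16.5, 16.2 and 24.7 CPM in heat, against 25.4, 14.5 and 14.0 CPM in control. Its highest values were those of control 1 and heat 3, and the sign of its fold change turned in 3 of 15 alternative fits. The summed phosphofructokinases stood at 75.7, 75.9 and 79.9 CPM in heat, against 58.2, 50.4 and 58.1 CPM in control. PFKM took 21.7, 21.3 and 30.9% of these scaled reads in heat and 43.6, 28.9 and 24.1% in control.

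Aldolases split the hexose bisphosphate into trioses. ALDOA, the main aldolase of muscle and most tissues, stood at 191, 204 and 306 CPM in heat, against 98.5, 203 and 291 CPM in control. ALDOC, the brain-type aldolase, stood at 13.5, 14.9 and 24.1 CPM in heat, against 12.02, 21.8 and 25.7 CPM in control. In both genes control 1 was the lowest library and heat 3 lay near control 3, so the groups overlapped. The log2 fold changes were 0.24 ± 0.45 for ALDOA and -0.18 ± 0.39 for ALDOC (SE), and both changed sign in some alternative fits.

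The lower segment from triose phosphates to pyruvate is carried here by TPI1, GAPDH, PGK1, PGAM1, ENO1, ENO2 and PKM. Of these 7 members, 0 were called by edgeR, 6 had a negative and 1 a positive fold change, and every one overlapped between the groups. Of all 14242 tested genes 11.0% were called, and 6826 had a negative and 7416 a positive fold change. GAPDH, the glyceraldehyde phosphate dehydrogenase often used as a reference gene, stood at 452, 413 and 950.5 CPM in heat, against 202, 879 and 971 CPM in control. Heat 3 lay with control 2 and 3, and control 1 lay below every heat library. The largest value was 4.82 times the smallest, while the log2 fold change was -0.18 ± 0.64 (SE) and its sign turned in 6 of 15 alternative fits. TPI1, the triose phosphate isomerase, stood at 187, 174 and 339 CPM in heat, against 125, 335 and 366 CPM in control. PGAM1, a phosphoglycerate mutase, stood at 264, 255 and 537 CPM in heat, against 242, 577 and 625 CPM in control. In both, as in GAPDH, control 1 was lowest, heat 1 and 2 came next, and heat 3 lay below control 3.

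PGK1, which forms the first ATP of the segment and is a HIF target, stood at 319.6, 327 and 573 CPM in heat, against 336, 859.7 and 782 CPM in control. Heat 1, heat 2 and control 1 were alike, and the log2 fold change of -0.70 ± 0.48 (SE) did not pass (edgeR adjusted p = 0.328). ENO1, the widespread enolase, stood at 549, 549 and 690.5 CPM in heat, against 332, 811 and 1002 CPM in control. PKM, the pyruvate kinase of most tissues, stood at 988, 982 and 1358 CPM in heat, against 718, 1036 and 1338 CPM in control. Heat 3 and control 3 were the 2 highest libraries for PKM, and its log2 fold change was 0.11 ± 0.41 (SE). ENO2, the neuronal enolase and a HIF target, stood at 3.84, 5.16 and 1.41 CPM in heat, against 0.601, 6.11 and 6.30 CPM in control. Control 1 rested on 9 reads, and ENO2 was low in heat 3 and control 1, unlike the other genes of the segment. The summed segment stood at 2763, 2706 and 4450.0 CPM in heat, against 1956, 4504 and 5091 CPM in control. Cytosolic ribosomal protein genes (52 tested) stood in a similar arrangement of libraries, with medians of 6.29, 6.17 and 8.01 log2 CPM in heat and 6.31, 7.92 and 8.07 log2 CPM in control. The summed stroma markers given above were highest in heat 1, heat 2 and control 1, the libraries with the 3 lowest sums of the segment. The part of either gene group in the levels of the glycolytic genes was not tested. Mammalian genomes are known to hold processed pseudogenes of GAPDH, LDHA, PGK1 and other glycolytic genes, and how shared reads were counted is unknown here, so these levels are uncertain to that extent.

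**Figure D3:**
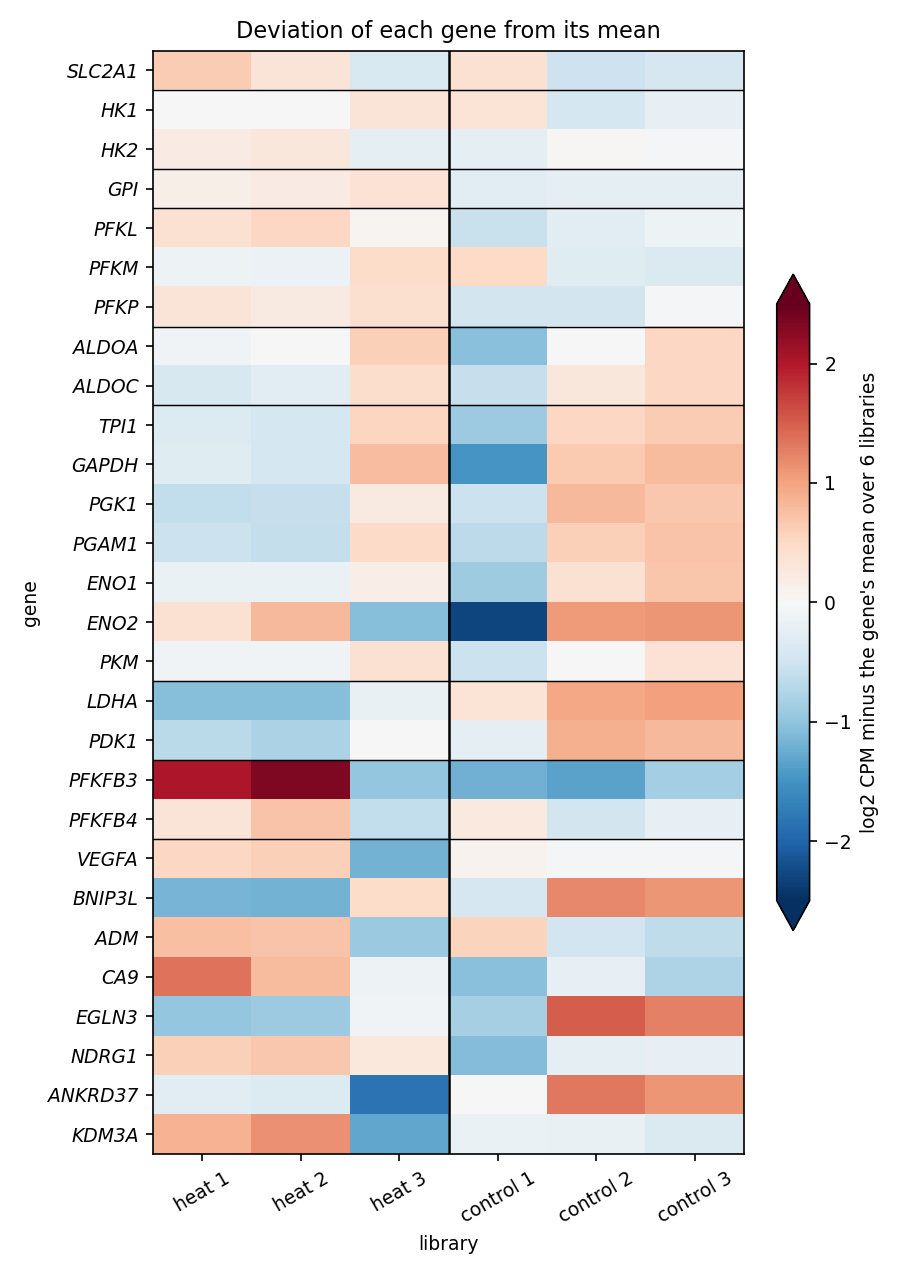
Log2 CPM of each member minus its mean over the 6 libraries, with heat libraries left of the line and controls right of it, and horizontal lines between roles. The rows from TPI1 to PGAM1 lie below their mean in heat 1, heat 2 and control 1, while PFKFB3 is high in heat 1 and heat 2 only, with 119 and 148 CPM against at most 16.1 CPM elsewhere.

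LDHA, the lactate dehydrogenase subunit that favours lactate formation and a classical HIF target, had groups that did not overlap. It stood at 431, 434 and 795 CPM in heat 1, 2 and 3, against 1148, 1782 and 1835 CPM in control 1, 2 and 3. Every heat library lay below every control, and means were 553 ± 209.6 CPM in heat and 1588 ± 382 CPM in control (SD, n = 3). The log2 fold change was -1.52 ± 0.45 (SE), with an unadjusted p of 0.00957 and an edgeR adjusted p of 0.0622. Its sign was negative in all 15 alternative fits, and it was called in 6 of them. DESeq2 (adjusted p = 0.00248) and limma-voom (adjusted p = 0.0466) were among these. The replicate block and the fits without heat 3, control 1 or both called it too. These fits called 14.8, 18.4, 19.6 and 41.2% of all tested genes higher and 9.13, 17.7, 12.3 and 38.4% lower. Without heat 1, heat 2, control 2 or control 3 the edgeR adjusted p of LDHA was 0.19 to 0.23. With near-identical libraries summed it was 0.58. LDHA (ENSSSCG00000013366) lies on chromosome 2 of Sscrofa11.1 at 40814163 to 40827284, and no other RefSeq gene overlaps this span. LDHA did not keep its proportion to the enzymes above it. Its CPM was 0.156, 0.160 and 0.179 of the summed lower segment in heat, against 0.587, 0.396 and 0.360 in control. In this ratio heat 3 lay beside heat 1 and 2, although its LDHA and its summed segment were both the highest of the heat group. The ratio was formed after the values were seen and has no test. LDHB, the other main lactate dehydrogenase subunit and not a member, was sparse, at 4.69, 4.09 and 14.4 CPM in heat and 4.87, 11.8 and 11.9 CPM in control. LDHA therefore took 98.9, 99.1 and 98.2% of the scaled reads of the pair in heat and 99.6, 99.3 and 99.4% in control.

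**Figure D4:**
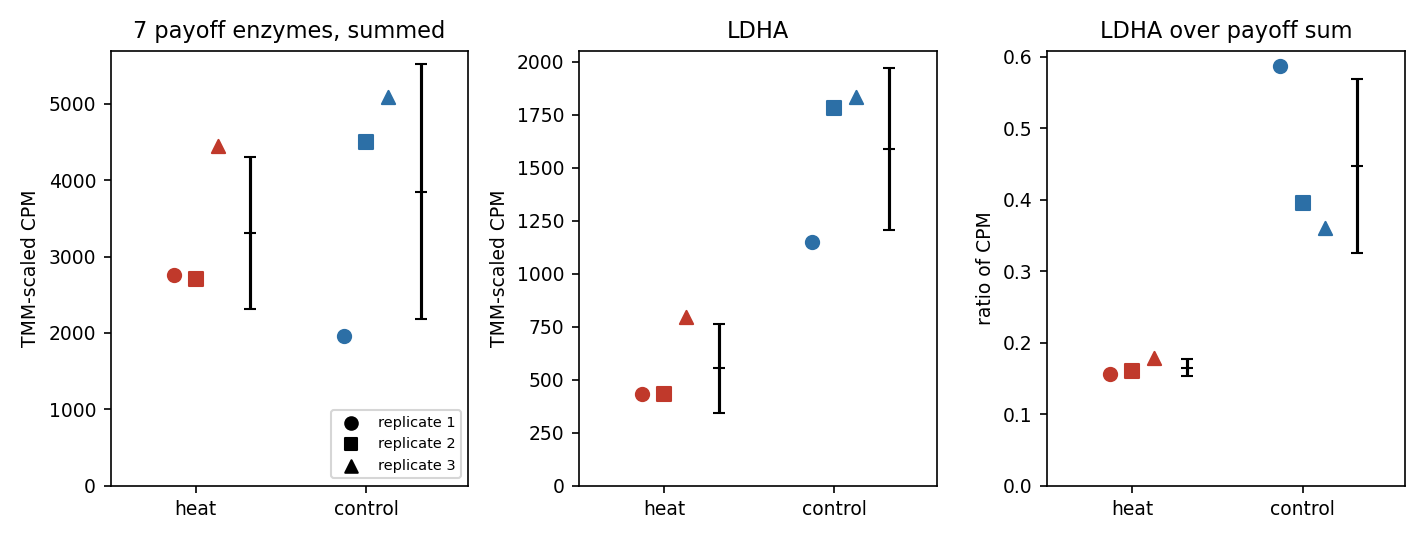
Summed CPM of the 7 enzymes from TPI1 to PKM, CPM of LDHA, and the ratio of LDHA to that sum, per library, with black bars for the mean ± SD of 3 libraries. The summed enzymes overlap between the groups, whereas LDHA lies at 431 to 795 CPM in heat and 1148 to 1835 CPM in control, and the ratio at 0.156 to 0.179 in heat and 0.360 to 0.587 in control.

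PDK1, a kinase that inactivates pyruvate dehydrogenase and so holds pyruvate back from the mitochondria, is also a HIF target. It stood at 74.2, 68.9 and 119 CPM in heat, against 101, 219 and 207 CPM in control. Heat 3 lay above control 1, so the groups overlapped. The log2 fold change was -1.01 ± 0.41 (SE), with an unadjusted p of 0.0406 and an edgeR adjusted p of 0.131. Without control 1 the log2 fold change was -1.31 ± 0.33 (SE) and passed (edgeR adjusted p = 0.0296). That fit called 19.6% of all tested genes higher and 12.3% lower. With any other single library left out, PDK1 did not pass (edgeR adjusted p 0.0506 to 0.359). PDK1 lies on chromosome 15 at 78608394 to 78650958, where 2 annotated long noncoding RNAs overlap it.

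The bifunctional enzymes of the PFKFB family set the level of the sugar bisphosphate that activates phosphofructokinase. PFKFB3, the member with the highest kinase over phosphatase activity, stood at 119, 148 and 14.9 CPM in heat 1, 2 and 3, against 12.8, 11.6 and 16.1 CPM in control 1, 2 and 3. Heat 1 and 2 lay far above all other libraries, while heat 3 lay within the controls. Means were 94.0 ± 70.0 CPM in heat and 13.5 ± 2.36 CPM in control (SD, n = 3). The log2 fold change was 2.80 ± 0.75 (SE), the largest of the members, with an unadjusted p of 0.00596 and an edgeR adjusted p of 0.0518. Without heat 3 it was 3.29 ± 0.25 (SE) and passed (edgeR adjusted p = 0.00851), in a fit that called 18.4% of all tested genes higher and 17.7% lower. With any other single library left out, PFKFB3 did not pass (edgeR adjusted p 0.0707 to 0.184). PFKFB3 lies on chromosome 10 at 64776315 to 64859118 and overlaps no other RefSeq gene. PFKFB4, a relative that is also induced by HIF, stood at 9.62, 12.6 and 4.98 CPM in heat, against 9.08, 5.59 and 6.69 CPM in control. It had the same order among the heat libraries on a smaller scale, and its groups overlapped (log2 fold change 0.35 ± 0.41 SE). The ratio of PFKFB3 to PFKFB4 was 12.4, 11.8 and 2.98 in heat, against 1.40, 2.07 and 2.41 in control.

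Among the HIF targets outside glycolysis, 8 were tested, 0 were called by edgeR, 5 had a positive and 3 a negative fold change. Of all 14242 tested genes 11.0% were called, and 7416 had a positive and 6826 a negative fold change. NDRG1, a stress-responsive gene induced by hypoxia, stood at 94.6, 99.5 and 75.0 CPM in heat, against 29.5, 52.4 and 53.7 CPM in control. Every heat library lay above every control, with a log2 fold change of 0.99 ± 0.34 (SE) and an edgeR adjusted p of 0.0861. NDRG1 lies on chromosome 4 at 8014445 to 8069335, and an annotated pseudogene overlaps this span. CA9, the membrane carbonic anhydrase that exports acid equivalents in hypoxic cells, was sparse, with 57, 41 and 33 reads in heat and 8, 22 and 13 reads in control. These were 2.84, 1.91 and 1.01 CPM in heat, against 0.534, 0.961 and 0.645 CPM in control. The groups did not overlap, but heat 3 exceeded control 2 by little, and the log2 fold change of 1.40 ± 0.53 (SE) did not pass (edgeR adjusted p = 0.113). CA9 lies on chromosome 1 at 236393727 to 236400994.

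VEGFA, the vascular growth factor made by granulosa cells as follicles grow, stood at 93.9, 99.4 and 29.0 CPM in heat, against 70.0, 64.6 and 64.6 CPM in control. Heat 1 and 2 lay above the controls and heat 3 below them. ADM, the vasoactive peptide adrenomedullin, stood at 114, 111 and 35.5 CPM in heat, against 99.5, 48.6 and 43.5 CPM in control. KDM3A, a histone demethylase induced by HIF, stood at 155, 187 and 34.6 CPM in heat, against 75.0, 74.2 and 65.9 CPM in control. VEGFA and KDM3A thus had the highest and the lowest value of all 6 libraries within the heat group, as did ADM. Their edgeR adjusted p-values were 0.827, 0.570 and 0.334 for VEGFA, ADM and KDM3A. Without heat 3, KDM3A had a log2 fold change of 1.24 ± 0.21 (SE) and passed (edgeR adjusted p = 0.0129). With any other single library left out, KDM3A did not pass (edgeR adjusted p 0.369 to 0.693).

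EGLN3, a HIF prolyl hydroxylase that is itself induced by HIF and closes a feedback loop, stood at 42.6, 44.4 and 78.4 CPM in heat, against 46.8, 237 and 198 CPM in control. Control 1 lay among the heat libraries and control 2 and 3 far above them. The log2 fold change was -1.54 ± 0.60 (SE), with an edgeR adjusted p of 0.116. Without control 1 it was -2.01 ± 0.36 (SE) and passed (edgeR adjusted p = 0.0131). With any other single library left out, EGLN3 did not pass (edgeR adjusted p 0.0852 to 0.328). EGLN3 lies on chromosome 7 at 65805513 to 65833536. BNIP3L, a mitophagy receptor, stood at 68.8, 67.6 and 212 CPM in heat, against 114, 355 and 328 CPM in control. Heat 3 lay above control 1, and the log2 fold change of -1.197 ± 0.61 (SE) did not pass (edgeR adjusted p = 0.204). Without heat 3 it was -1.98 ± 0.54 (SE) and passed (edgeR adjusted p = 0.0405). With any other single library left out, BNIP3L did not pass (edgeR adjusted p 0.0733 to 0.452).

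ANKRD37, an ankyrin repeat protein gene and direct HIF target, stood at 2.64, 2.51 and 0.886 CPM in heat, against 3.20, 7.86 and 6.84 CPM in control. These were 53, 54 and 29 reads in heat and 48, 180 and 138 reads in control. Every heat library lay below every control, with a log2 fold change of -1.58 ± 0.55 (SE) and an edgeR adjusted p of 0.0904. ANKRD37 lies on chromosome 15 at 46445789 to 46450046 and shares part of this span with UFSP2. The sources used here do not say whether reads were counted by strand, so reads of these overlapping genes may not be told apart. Of the 28 members, 11 overlap another annotated gene.

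**Figure D5:**
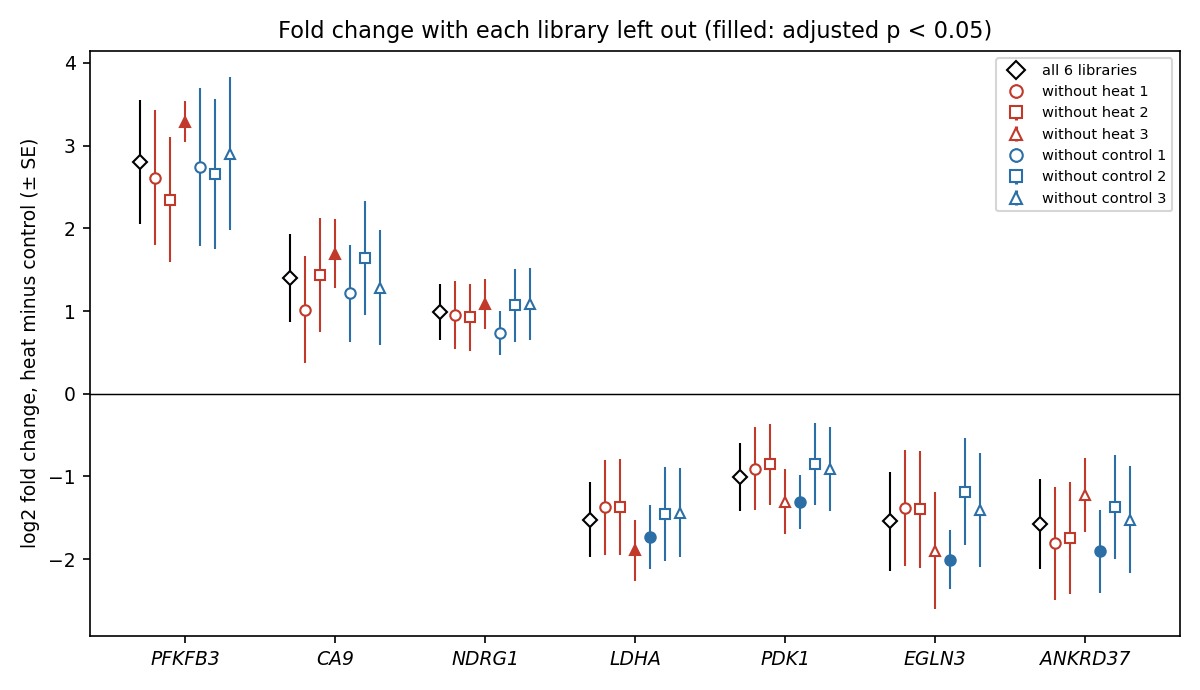
Log2 fold change, heat minus control, with its standard error for the 7 members with an unadjusted p below 0.05, with all 6 libraries and with each library left out. The sign of each member is the same in all 7 fits, and an adjusted p below 0.05 (filled symbols) occurs without heat 3 or without control 1, where 18.4 and 19.6% of all tested genes were called higher and 17.7 and 12.3% lower.

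By the median over members, the libraries that stood apart differed from their own group by more than the groups differed from each other. These measures are unlike, since 1 library against the mean of 2 varies more than a mean of 3 against a mean of 3. Heat 3 and control 1 were also set apart after their values were seen. On the scale of log2(CPM + 0.5), heat 3 differed from the mean of heat 1 and 2 by a median of 0.85 over the members, and control 1 from the mean of control 2 and 3 by 0.84. These medians were 0.67 and 0.61 over all tested genes. Heat 1 and heat 2 differed by a median of 0.08 over the members, and control 2 and control 3 by 0.15. The means of the groups differed by a median of 0.40 over the members and 0.69 over all tested genes. The largest library value exceeded the smallest more than 2 times for 22 of 28 members.

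Which members were called depended on the libraries that stood apart. Without heat 3, edgeR called CA9, KDM3A, NDRG1 and PFKFB3 higher and BNIP3L and LDHA lower, while 18.4% of all tested genes were called higher and 17.7% lower. Without control 1 it called 0 members higher and ANKRD37, EGLN3, LDHA and PDK1 lower, while 19.6% of all tested genes were called higher and 12.3% lower. LDHA was the member called in both of these fits. Without heat 1, heat 2, control 2 or control 3, edgeR called 0 members, and at most 7 genes in all. Without both control 1 and heat 3 it called 12 members higher and 13 lower, while 41.2% of all tested genes were called higher and 38.4% lower. That fit sets 2 near-identical libraries against 2 others, so its errors measure the spread within those pairs only. With heat 1 and 2 summed and control 2 and 3 summed, 0 members and 2 genes in all were called.

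The subunits and regulators of HIF were read beside its targets. HIF1A, the oxygen-regulated alpha subunit, stood at 513, 541 and 1029.9 CPM in heat, against 1239, 1520.5 and 1157 CPM in control. Every heat library lay below every control, and the log2 fold change of -0.91 ± 0.43 (SE) did not pass (edgeR adjusted p = 0.177). HIF1A is controlled largely through the stability of its protein, which was not measured. EPAS1, the other main alpha subunit, stood at 29.97, 39.1 and 21.7 CPM in heat, against 21.4, 49.4 and 57.9 CPM in control. ARNT, the beta subunit that both share, stood at 39.6, 46.9 and 31.5 CPM in heat, against 44.0, 55.0 and 57.7 CPM in control. EGLN1, the main HIF prolyl hydroxylase, stood at 51.3, 52.6 and 51.5 CPM in heat, against 48.9, 48.8 and 45.0 CPM in control. HIF1AN, the asparagine hydroxylase of HIF, stood at 18.1, 17.1 and 39.2 CPM in heat, against 23.4, 21.9 and 25.5 CPM in control. EGLN1 varied little among the libraries, with a log2 fold change of 0.12 ± 0.26 (SE). Of 7 tested genes in this group of subunits and regulators, 0 were called by edgeR, beside 11.0% of all tested genes. At an unadjusted p below 0.05, 28.6% lay higher and 0% lower, beside 19.5% and 14.4% of all tested genes. Those with an unadjusted p below 0.05 were ARNT2, another beta subunit, and CITED2, an inhibitor of HIF, at log2 fold changes of 1.37 ± 0.42 and 0.80 ± 0.33 (SE), both named after their values were seen.

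Of 103 other genes of glucose metabolism and the hypoxia response, 95 had a row and 83 were tested, and edgeR called 8 higher and 1 lower. The shares, 9.64% and 1.205%, stand beside 6.71% and 4.32% of all tested genes. This list was chosen with earlier results of these data known, so its shares are no independent test. ENO3, the muscle-type enolase, rose to 203, 182 and 413 CPM in heat, against 98.0, 30.3 and 40.6 CPM in control, a log2 fold change of 2.24 ± 0.56 (SE, edgeR adjusted p = 0.0461). ENO3 took 26.9, 24.8 and 37.4% of the scaled reads of ENO1, ENO2 and ENO3 in heat and 22.7, 3.57 and 3.87% in control, so control 1 lay near the heat libraries. The brain-type glycogen phosphorylase PYGB rose to 17.2 ± 2.23 CPM in heat, against 7.52 ± 0.342 CPM in control (SD, n = 3, edgeR adjusted p = 0.0404). The glucose phosphatase subunit G6PC3 rose to 13.3 ± 2.94 CPM in heat, against 5.76 ± 0.451 CPM in control (SD, n = 3, edgeR adjusted p = 0.0461). The intracellular glucose transporter SLC2A8 rose to 4.69, 5.02 and 1.38 CPM in heat, against 0.868, 0.437 and 0.793 CPM in control (edgeR adjusted p = 0.0472). Each of these genes, ENO3, PYGB, G6PC3 and SLC2A8, had every heat library above every control.

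Of 28 tested genes listed here as other HIF targets, 3 rose and 1 fell. These shares, 10.7% and 3.57%, stand beside 6.71% and 4.32% of all tested genes. They are no independent test either, as the genes were listed with earlier results of these data known. EFNA3, an ephrin ligand, rose to 5.19, 5.58 and 1.44 CPM in heat, against 0.267, 0.0873 and 0.0992 CPM in control, where it rested on 4, 2 and 2 reads (edgeR adjusted p = 0.0276). JMJD6, an arginine demethylase and lysine hydroxylase, rose to 30.5 ± 4.20 CPM in heat, against 6.32 ± 0.673 CPM in control (SD, n = 3, edgeR adjusted p = 0.0266). HMOX1, heme oxygenase, was called higher as well, at 397, 349 and 243 CPM in heat against 39.0, 7.51 and 12.1 CPM in control (edgeR adjusted p = 0.0276). HMOX1 is also a known target of the heat shock and NRF2 responses. TFRC, the transferrin receptor, fell to 76.0, 82.9 and 70.3 CPM in heat, against 251, 274 and 217 CPM in control, a log2 fold change of -1.69 ± 0.30 (SE, edgeR adjusted p = 0.0276). Without heat 1, heat 2, control 2 or control 3, edgeR called 0 of the 83 other genes.

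Transcripts for carriers of pyruvate and lactate and for pyruvate dehydrogenase were read next. The fate of pyruvate and lactate themselves was not measured. The carriers SLC16A1 and MPC1 matched no identifier. PDHA1, the catalytic subunit that PDK1 phosphorylates, stood at 158, 158 and 376 CPM in heat, against 239.9, 203 and 181 CPM in control. The ratio of PDK1 to PDHA1 was 0.469, 0.436 and 0.316 in heat, against 0.419, 1.08 and 1.14 in control, so control 1 lay among the heat libraries. SLC16A3, the lactate exporter MCT4 and a HIF target, stood at 21.5, 20.5 and 5.47 CPM in heat, against 7.34, 10.7 and 13.8 CPM in control. It was high in heat 1 and 2 and lowest in heat 3, as KDM3A was. TXNIP, a brake on glucose uptake that responds to glucose, stood at 59.8, 65.4 and 35.0 CPM in heat, against 53.3, 169.6 and 195 CPM in control. Control 1 lay among the heat libraries, as it did for EGLN3, and the log2 fold change of -1.38 ± 0.52 (SE) did not pass (edgeR adjusted p = 0.108). Of 12 tested genes of pyruvate dehydrogenase and the pyruvate carriers, 0 were called by edgeR, beside 11.0% of all tested genes. At an unadjusted p below 0.05, 16.7% lay higher and 8.33% lower, beside 19.5% and 14.4% of all tested genes. An unadjusted p below 0.05 was reached by DLD, a subunit of pyruvate dehydrogenase, by the kinase PDK3 and by the pyruvate carboxylase PC, at log2 fold changes of -1.55 ± 0.41, 0.92 ± 0.37 and 1.05 ± 0.28 (SE). These genes were named after their values were seen.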

How the data were processed

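RNA was measured by stranded mRNA sequencing, read in pairs, in 3 heat and 3 control libraries. Per the submitters' processing notes, FastQC 0.11.4, Trim Galore and STAR were used with the Sscrofa11.1 assembly. The sources used here name no counting tool and no annotation release. The values deposited by the authors are raw read counts for each Ensembl identifier in each library. The table of normalized counts was not used. Symbols came from a reference table that named 15623 of 35670 identifiers, and coordinates from RefSeq genes of Sscrofa11.1 matched by symbol. Members, lists and tests were chosen with earlier results of these data known.

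The filterByExpr rule of edgeR, at a minimum count of 10, left 14242 genes. Groups were compared with edgeR 4.0.16 in R 4.3.3 (quasi-likelihood F test, two-sided, TMM factors, robust dispersions), with Benjamini-Hochberg adjustment over all tested genes and calls below 0.05. Standard errors were taken as the size of the log2 fold change over the root of F. Over all genes the common coefficient of variation was 43.6%, which limits the folds that can be called. All 30 members were to be named, with every called gene of the 103 other genes and 12 more of these whatever their values. VHL and SLC16A1 among the 12 had no matching identifier. 1 of the called genes is not reported here. Other statistics are ratios and sums of CPM within a library. Alternatives were RLE and upper-quartile scaling, no filter, a filter of 10 CPM in 3 libraries, the replicate number as a block, DESeq2 1.42.0, limma-voom (limma 3.58.1), each library left out, control 1 and heat 3 both left out, and near-identical libraries summed.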

Additional observations from a re-analysis of the deposited data

How the results depend on the processing

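The alternatives numbered 15, and of 28 members 18 kept their sign in every one in which they were tested, while 10 changed sign in at least one. The cause of these changes was not tested. With near-identical libraries summed, the log2 fold change was -0.012 for ADM, 0.067 for ALDOC, 0.26 for GAPDH, 0.093 for TPI1 and -0.13 for VEGFA. With limma-voom it was 0.027 for GAPDH and -0.019 for VEGFA, and without control 1 and heat 3 it was -0.34 for ALDOA and -0.29 for PKM. With single libraries left out, it ranged from -0.11 to 0.60 for ALDOA, -0.50 to 0.016 for ALDOC, -0.63 to 0.019 for ENO1, -0.87 to 0.030 for ENO2, -0.67 to 0.13 for GAPDH, -0.16 to 0.40 for PFKM, -0.12 to 0.30 for PKM and -0.085 to 0.53 for VEGFA.

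The labels do not say whether the replicate numbers pair the samples. The correlations below cannot decide it, because heat 1 and heat 2 were near-identical, as were control 2 and control 3. Deviations from the group means correlated at 0.354 for replicate 1, -0.279 for replicate 2 and 0.288 for replicate 3, and heat 2 and heat 3 did not correlate best with the control of their number. With the replicate block, GAPDH was at 0.013 and VEGFA at -0.022, and the fit called 1 member higher and 3 lower, 2104 genes higher and 1300 lower, and 5 other genes of the pathway lower.

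Counts of called members were 1 higher without a filter, 1 higher and 3 lower with DESeq2, 1 lower with limma-voom, and 12 higher and 13 lower without control 1 and heat 3. Over single libraries left out they ranged from 0 to 4 higher and from 0 to 4 lower. Over all genes, 956 were called higher and 615 lower. These counts were 1607 higher without a filter, 532 higher and 396 lower with the filter of 10 CPM, 2142 higher and 1668 lower with DESeq2, 6285 higher and 5857 lower without control 1 and heat 3, and 2 higher and 0 lower with near-identical libraries summed. With single libraries left out they ranged from 0 to 3021 higher and from 0 to 2713 lower. Of the 103 other genes of the pathway, 5 were called higher and 5 lower without a filter, and 31 higher and 33 lower without control 1 and heat 3. With near-identical libraries summed 0 were called higher and 0 lower. Those lower were 2 with RLE scaling, 2 with upper-quartile scaling, 2 with the filter of 10 CPM, 6 with DESeq2 and 2 with limma-voom. With single libraries left out they ranged from 0 to 14 higher and from 0 to 12 lower. The alternatives that left out control 1 and heat 3 or summed libraries were chosen with earlier results known. The filter of 10 CPM left out CA9, ANKRD37, PFKFB4 and ENO2. CA9, ENO2 and ANKRD37 had under 100 reads in some libraries, whereas 25 members had more than 100 reads in every library.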
